A study of Mus musculus with 20 samples.

Results

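A group of 7 long noncoding RNAs known for staying in the nucleus was examined in RNA immunoprecipitation sequencing (RIP-Seq) of mouse embryonic stem cells (ESCs). The RNAs were Malat1, Neat1, Meg3, Rian, Mirg, Kcnq1ot1 and Miat. They were taken by name from a list of nuclear-retained noncoding RNAs, and all 7 were among the 23284 genes of the deposited files. No measured value entered the rule, but the list was chosen with earlier results of these data known. For each RNA the level in total RNA (input) was read as TPM (reads per transcript length scaled to the same total in each library), and its recovery as log2(IP/input), the ratio of TPM + 1 in an immunoprecipitate to TPM + 1 in the input of the same line and replicate number.

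The study compared 3 ESC lines, each made by CRISPR knock-in of a Flag, HA and Twin-Strep tag at the end of an endogenous Tet gene and otherwise wild-type. The Tet1 line carried tagged Tet1 (2 IP and input pairs), the Tet2 line tagged Tet2 (4 pairs), and the Tet2ΔRBD line tagged Tet2 without its RNA-binding domain (4 pairs), which gave 20 libraries. Cells were grown in serum with leukemia inhibitory factor on gelatin. Clones were picked and sequenced, but how many clones stand behind each line is not given in the sources used here. The paper states that RIP-Seq was done at least in biological duplicate. Nothing in the labels says which replicates came from separate cultures. The p-values therefore measure the spread between these samples, which may be technical in part. Per the methods, an anti-Flag IP was made from cytoplasmic extract whereas the input was total RNA. The ratio of IP to input therefore holds the fraction of the cell and the antibody together, and the contributions of these cannot be told apart. No library of a control antibody was analysed here.

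The libraries held between 21078995 and 37576638 expected counts. By the numbering of the deposited files they fall into 3 library sets. Replicate 1 of Tet2 and Tet2ΔRBD formed set 1, replicate 2 of both lines set 2, and replicates 3 and 4 of both lines together with the Tet1 libraries set 3, so that Tet1 was measured in 1 set. The sets are not in the labels, and whether they were separate preparations is not given in the sources used here, so that what a difference between sets stands for cannot be told. The 10 pluripotency markers examined, Pou5f1 and Nanog among them, all had a mean above 1 TPM in the inputs, with a sum of 14504 to 18832 TPM in input and 9919 to 16847 TPM in IP. Most of this sum was Dppa5a, with a median of 11258 TPM in input. Summed markers of other cells were far lower in input, at 38.6 to 186 TPM for 8 fibroblast genes, 13.4 to 155 for 7 primitive endoderm genes, 21.3 to 144 for 5 neural genes and 2.67 to 6.30 for 5 mesoderm genes, and none of these was at 0 in all inputs. In IP the sums were 41.5 to 206, 11.1 to 175, 23.3 to 316 and 2.27 to 6.91 TPM. The primitive endoderm sum in input was 48.6 to 51.5 TPM in Tet1, 13.4 to 122 in Tet2 and 64.7 to 155 in Tet2ΔRBD. A mean of at least 1 TPM in the inputs was also reached by 4 of 8 fibroblast, 7 of 7 primitive endoderm, 3 of 5 neural and 1 of 5 mesoderm genes. The part of such cells in the results was not tested. In bulk samples, fewer cells of a type and less RNA per cell cannot be told apart.

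Nuclear long noncoding RNAs act where they are made or collect in nuclear bodies, and many never meet a ribosome. Malat1 gathers in nuclear speckles, the stores of splicing factors, and Neat1 is the scaffold on which paraspeckles form. Meg3, Rian and Mirg are transcribed from the maternal copy of the imprinted Dlk1-Dio3 domain, a region known in ESCs as a marker of full developmental potential, and Rian and Mirg host C/D box snoRNAs and microRNAs, respectively. Kcnq1ot1 runs from the paternal copy of the Kcnq1 domain and silences neighbouring genes in cis. Miat, first described in heart and neural tissue, forms nuclear foci in neurons.

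In the mm9 genome, with the gencode vM1 annotation, Malat1 lies at chr19:5795690-5802671 on the minus strand as a single exon. Neat1 lies on the same strand at chr19:5824708-5845478, 22.04 kb upstream of Malat1 in the direction of transcription. Meg3 (chr12:110779211-110809936), Rian (chr12:110842155-110899919) and Mirg (chr12:110973191-110987665) follow each other on the plus strand, with gaps of 32.2 kb and 73.3 kb. Miat lies at chr5:112642248-112657968 on the minus strand. Kcnq1ot1 was placed by the single match of its RefSeq promoter sequence (GRCm38.p6) to mm9, which puts its start at chr7:150482452 on the minus strand, and with the 83437 bases given in the files it would end at position 150399016, inside the protein-coding Kcnq1 gene on the opposite strand. The protocol states no step that marks strand, so that reads of Kcnq1ot1 and of unspliced Kcnq1 RNA cannot be told apart. The files count Neat1 through a single transcript of 3177 bases, the short isoform. The long isoform, on which paraspeckles depend, was not measured as such.

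The study describes a UC-rich sequence in RNAs that carry 5-hydroxymethylcytosine, a mark it found to be made in part by Tet proteins. The longest unbroken stretch of C and T in each of 5 transcripts is therefore shown here, in a window of 30 bases read 5′ to 3′ along the RNA. The study placed the mark mostly in introns, whereas these stretches were read in spliced RNA. Capitals mark the C and T stretch.
Malat1, chr19:5799851-5799880: ttgCTTCTTTTTTCCTTTTTCTTTTTTTga
Neat1, chr19:5842326-5842355: actaaccaTTTTCCTCCCCTTTacagcaaa
Meg3, chr12:110782690-110782719: aggcatgTCCCCTCCCCCTCCTCCacccac
Mirg, chr12:110980366-110980395: cctggacaagCTTCCCTCCCCatactgttg
Kcnq1ot1, chr7:150474760-150474789: TCTCTCTCTCTCTCTCTTTCTCTCTCTCTC

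The stretch ran for 71 bases in Kcnq1ot1, of which 30 are shown, and for 26 in Miat, 25 in Malat1, 17 in Meg3, 14 in Neat1 and 11 in Mirg, beside a median of 14 over the 21542 annotated genes with at least 1 kb of exon. In Kcnq1ot1 it was mostly alternating C and T, whereas that of Malat1 was mostly T. The letters TCTCTC were then searched in the spliced RNA, with overlapping matches counted. They were chosen here, as the paper's text names its motif only as UC-rich. These letters occurred 60 times in Kcnq1ot1, or 0.72 per kb, against 0.53 per kb over all genes pooled and 0.73 over the 1055 genes annotated as lincRNA. Mirg held 1.54 per kb from 2 matches, Meg3 1.01 per kb from 2 matches and Miat 0.91 per kb from 8 matches, whereas Malat1 held 0.43 per kb, Neat1 0.33 and Rian 0.28. On the other strand, at 0.66 per kb over all genes, the letters occurred 57 times in Kcnq1ot1 (0.68 per kb), 15 times in Miat, once each in Neat1 and Meg3, and in none of Malat1, Rian and Mirg. Of all these genes 60.5% held the letters at least once. Among genes of similar length the share was 37.7% for Mirg, 50.3% for Meg3, 64.8% for Neat1, 70.4% for Rian, 88.5% for Malat1 and 91.6% for Miat. Kcnq1ot1 had too few genes of its length for a share. The C and T stretches were not compared with those of genes of similar length.

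A further stretch is shown for Malat1 because of how its RNA ends. The mature Malat1 end is made by cleavage just after a stretch rich in A that is encoded in the genome, which folds into a triple helix and stands in for a poly(A) tail, and the labels give poly(A) RNA as the molecule sequenced. The 30 bases up to the end of that stretch, with runs of A in capitals, lie 292 bases before the annotated end.
Malat1, chr19:5795982-5796011: ttccctagctttAAAAAAAAAAAAgcAAAA

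In input the 7 RNAs spanned over 3 orders of magnitude in level per length. Neat1 was highest, with a lowest, median and highest TPM of 20.2, 68.0 and 123 over the 10 inputs. Rian followed with 21.6, 35.5 and 43.8, and Meg3 with 20.7, 29.4 and 41.1. The means of Rian (32.7 ± 8.94, SD, n = 10) and Meg3 (30.3 ± 5.8) lay within each other's spread, and the range of Neat1 covered both, so that the upper part of the order did not separate beyond the spread. Mirg had 5.85, 9.73 and 11.3 TPM and Malat1 1.74, 4.16 and 6.15 TPM, ranges that met in their ends. Kcnq1ot1 stood at 0.16 to 0.54 TPM and Miat at 0 to 0.11 TPM. Because Kcnq1ot1 is so long, its 0.16 to 0.54 TPM still rested on 270 to 739 expected counts per input, whereas Miat had 0 to 23 counts. By mean input level Neat1 ranked 2064th and Malat1 9022nd of the 23284 genes. The labels give poly(A) RNA as the molecule sequenced, so that an RNA ending without a poly(A) tail, as mature Malat1 does, may be counted too low. This was not tested.

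**Figure D1:**
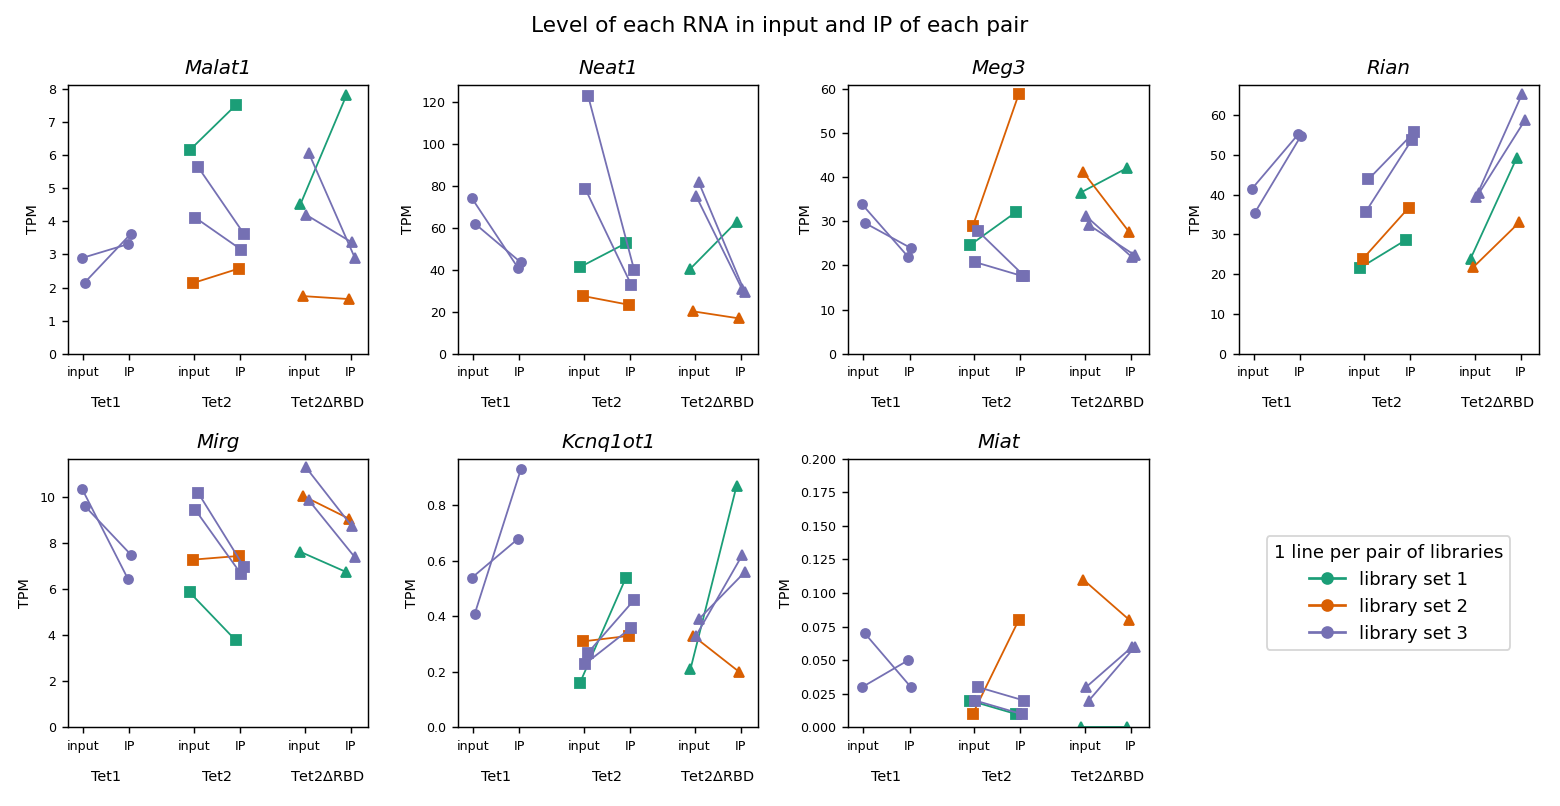
TPM of each RNA in input and IP, 1 panel per RNA with its own linear axis from 0. Each line joins the input and the IP of 1 pair, grouped by cell line and coloured by library set. All 10 lines of Rian rise, 9 of the 10 lines of Mirg fall, and Neat1 falls in the 6 pairs of set 3.

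Rian, the snoRNA host, was the RNA recovered above its input in every pair. In the Tet1 pairs it went from 41.5 to 55.2 TPM and from 35.5 to 54.8 TPM. In replicates 1 to 4 of Tet2 the inputs of 21.6, 23.8, 35.6 and 43.8 TPM stood beside IP values of 28.6, 36.7, 53.7 and 55.8. In those of Tet2ΔRBD the inputs of 23.9, 21.8, 39.4 and 40.3 TPM stood beside 49.2, 33.1, 65.4 and 58.7. Within each library set, every IP value of Rian was above every input value, although across sets the groups overlapped. The mean log2(IP/input) was 0.58 ± 0.19 (SD, n = 10 pairs), with a range of 0.34 to 1.01, and it stayed above 0 in 10 of 10 pairs after centring each pair on its median ratio (mean 0.40 on that scale, from 0.16 to 0.75), as did 11.8% of genes. Over the 10 pairs Rian was the member above input in every pair, as were 22.4% of the 13710 genes that passed a filter on low counts (at least 1 CPM, counts scaled to library size, in at least 2 libraries).

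Mirg, the microRNA host, showed the opposite. Its TPM fell from 10.4 to 6.43 and from 9.60 to 7.49 in the Tet1 pairs. In replicates 1 to 4 of Tet2 inputs of 5.85, 7.27, 9.43 and 10.2 TPM stood beside IP values of 3.77, 7.43, 6.63 and 6.95. In those of Tet2ΔRBD inputs of 7.61, 10.0, 11.3 and 9.85 TPM stood beside 6.73, 9.04, 8.71 and 7.38. The pair of Tet2 replicate 2 was the exception, with IP slightly above input. The mean log2(IP/input) was -0.34 ± 0.20 (SD, n = 10 pairs), and after centring Mirg was below input in 10 of 10 pairs, with a mean of -0.52, as were 1790 of the 13710 genes (13.1%). Without centring, none of the members was below input in all 10 pairs, as were 5.59% of genes.

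Rian and Mirg come from the same strand of the same domain and parted in each pair. The difference between the log2(IP/input) of Rian and of Mirg was 0.91 ± 0.17 (SD, n = 10 pairs), from 0.58 to 1.17, and was above 0 in 10 of 10 pairs. Being taken within a pair, this difference hardly depends on the scaling of the libraries. The comparison of these RNAs was chosen after their values were seen and is given as a description, with no test.

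Meg3, the first gene of the same cluster and a tumour suppressor RNA, was recovered less evenly. In the Tet1 pairs its TPM fell from 33.8 to 21.9 and from 29.6 to 23.9. In Tet2 the inputs of replicates 1 to 4 were 24.6, 28.8, 20.7 and 27.7 TPM and the IP values 32.1, 58.8, 17.6 and 17.6. In Tet2ΔRBD the inputs were 36.5, 41.1, 31.1 and 29.1 TPM and the IP values 42.0, 27.5, 21.8 and 22.3. All 6 pairs of set 3 had less Meg3 in IP than in input (mean log2(IP/input) -0.44 ± 0.17, SD), whereas of the 4 pairs of sets 1 and 2 3 had more (mean 0.25 ± 0.64).

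Neat1, the paraspeckle scaffold, split by library set even more clearly. In set 3 the Tet1 pairs went from 74.0 to 40.8 TPM and from 62.0 to 43.5 TPM, the Tet2 pairs from 78.4 to 32.6 and from 123 to 39.8, and the Tet2ΔRBD pairs from 75.2 to 30.8 and from 81.6 to 29.3. In set 1 Neat1 went up, from 41.2 to 52.6 TPM in Tet2 and from 40.5 to 62.8 in Tet2ΔRBD. In set 2 it went from 27.5 to 23.3 and from 20.2 to 16.8. The mean log2(IP/input) was -1.15 ± 0.41 (SD, n = 6) in set 3 and 0.12 ± 0.43 (n = 4) in sets 1 and 2. Among the 11784 genes with a mean input of at least 1 TPM, Neat1 stood between the 0.30th and the 5.29th percentile of the ratio in the pairs of set 3.

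Malat1, the speckle RNA, had no common direction. It went from 2.89 to 3.31 TPM and from 2.15 to 3.62 TPM in Tet1. The Tet2 inputs of replicates 1 to 4, at 6.15, 2.13, 4.11 and 5.64 TPM, stood beside IP values of 7.51, 2.57, 3.14 and 3.61. The Tet2ΔRBD inputs, at 4.51, 1.74, 4.20 and 6.07 TPM, stood beside 7.81, 1.65, 3.36 and 2.9. Both Tet1 pairs rose and the other 4 pairs of the same library set fell, and over the 10 pairs 5 lay above and 5 below input (mean log2 -0.02 ± 0.48, SD).

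Kcnq1ot1, the silencer of the Kcnq1 domain, lay above input in 9 of 10 pairs at a low level. Its TPM went from 0.54 to 0.68 and from 0.41 to 0.93 in Tet1, from 0.16 to 0.54, 0.31 to 0.33, 0.23 to 0.36 and 0.27 to 0.46 in Tet2, and from 0.21 to 0.87, 0.33 to 0.20, 0.33 to 0.62 and 0.39 to 0.56 in Tet2ΔRBD. The second Tet2ΔRBD pair was the one below input. On the TPM + 1 scale, which understates changes of low genes, its mean log2(IP/input) was 0.23 ± 0.22 (SD, n = 10 pairs), and with 0.1 added in place of 1 it was 0.60. After centring 6 of 10 pairs were above 0. Miat, at no more than 0.11 TPM in any library, gave ratios between -0.06 and 0.10 that its 0 to 23 counts cannot resolve, and it was the 1 member that did not pass the filter on low counts.

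**Figure D2:**
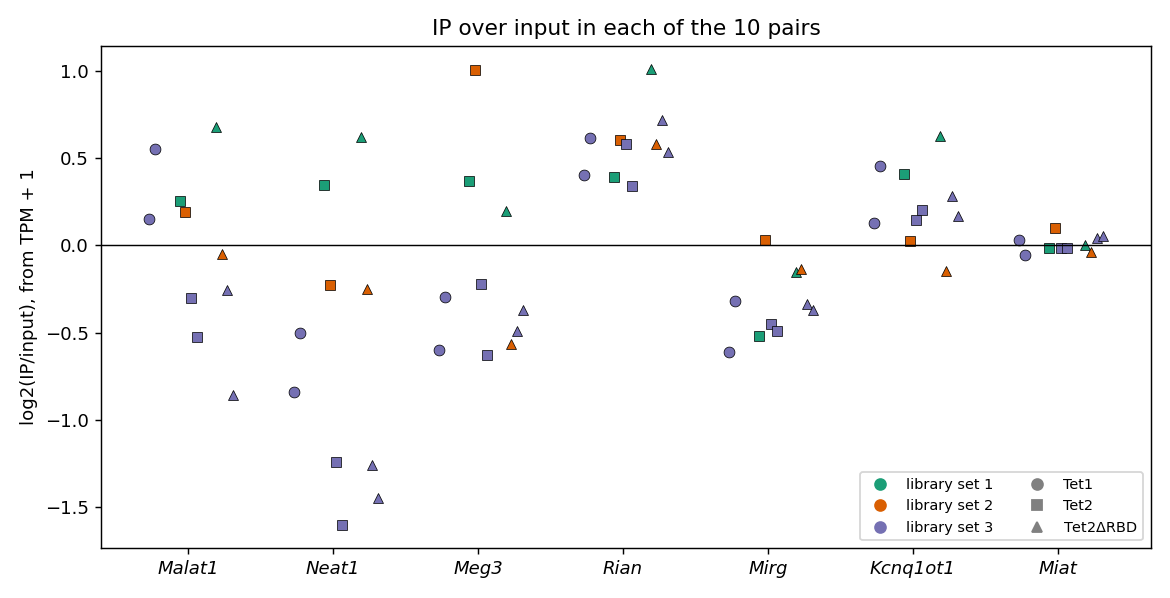
log2(IP/input) from TPM + 1 for each RNA. Each point is 1 pair, shaped by cell line and coloured by library set, and the horizontal line marks equal TPM + 1 in IP and input. Rian lies above the line in all 10 pairs, Mirg below it in 9, and the 6 set 3 points of Neat1 and of Meg3 lie below the line.

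Counting pairs within lines gave the same picture. In Tet1, Malat1, Rian and Kcnq1ot1 were above input in both pairs, as were 50.9% of the 13710 genes, and Neat1, Meg3 and Mirg were below in both, as were 30.1%. In Tet2, Rian and Kcnq1ot1 were above input in all 4 pairs (46.5% of genes) and 0 of the 6 members were below in all 4 (11.9% of genes). In Tet2ΔRBD, Rian was above in all 4 pairs (31.8% of genes) and Mirg below in all 4 (8.56% of genes). In the 6 pairs of set 3, Rian and Kcnq1ot1 were above throughout (37.8% of genes), and Neat1, Meg3 and Mirg were below throughout (13.8% of genes). The median TPM ratio of the 11784 expressed genes was itself above 0, at 0.01 to 0.38 in log2 over the 10 pairs.

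The tests used expected counts scaled so that most genes do not change (edgeR quasi-likelihood test, Benjamini-Hochberg adjustment over 13710 genes, threshold 0.05). On that scale the median log2 ratio of all genes was -0.02 for the mean of the 3 lines. Over the mean of the 3 lines, 3 of 6 tested members were lower in IP and 1 was higher. Neat1 had a fitted log2(IP/input) of -0.91 ± 0.23 (SE, adjusted p = 0.0079). Mirg had -0.65 ± 0.09 (adjusted p = 0.00027), Meg3 -0.50 ± 0.12 (adjusted p = 0.0069) and Rian 0.33 ± 0.06 (adjusted p = 0.0015). Over all genes 25.1% were called lower and 21.7% higher (3439 and 2972 genes), and limma on log2(TPM + 1), which keeps the TPM scaling, called 1512 lower and 5692 higher with a median log2 ratio of 0.16. Kcnq1ot1 (0.51 ± 0.23, adjusted p = 0.096) and Malat1 (-0.18 ± 0.16, adjusted p = 0.36) did not pass. The call of Meg3 ended in limma on log2(TPM + 1), where its ratio was -0.21 (adjusted p = 0.25) and where the ratio of Malat1 turned to 0.04. Kcnq1ot1 passed in DESeq2 (0.54, adjusted p = 0.031), in limma on log2(TPM + 1) (0.24, adjusted p = 0.023) and without Tet2ΔRBD replicate 2 (adjusted p = 0.016).

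Line by line, fewer members passed. In Tet2, 2 of 6 were lower and 0 were higher, beside 18.5% and 14.6% of genes. They were Mirg (-0.73 ± 0.14, adjusted p = 0.0031) and Neat1 (-1.02 ± 0.35, adjusted p = 0.044). The call of Neat1 was lost without replicate 2 (adjusted p = 0.068), replicate 3 (0.14) or replicate 4 (0.17), and with replicates 3 and 4 merged (0.12). It was also lost in limma on log2(TPM + 1), where Neat1 had -0.68 (adjusted p = 0.13), while Mirg kept its call there (-0.36, adjusted p = 0.038) and Rian gained one (0.48, adjusted p = 0.0049). In Tet2ΔRBD, 2 were lower and 1 was higher, beside 12.1% and 7.40% of genes. They were Mirg (-0.55 ± 0.13, adjusted p = 0.018), Meg3 (-0.61 ± 0.19, adjusted p = 0.042) and Rian (0.45 ± 0.09, adjusted p = 0.0096). Each of these 3 calls rested on single pairs: Mirg lost its call without replicate 1 (adjusted p = 0.060) or replicate 3 (0.090), Meg3 without replicate 2 (0.13), 3 (0.16) or 4 (0.076), and Rian without replicate 1 (0.051), while Neat1 gained one without replicate 1 (-1.24, adjusted p = 0.045). With replicates 3 and 4 merged Mirg (adjusted p = 0.091) and Meg3 (0.11) lost their calls, and in limma on log2(TPM + 1) they had -0.25 (adjusted p = 0.15) and -0.31 (0.31). Rian kept its call in both (adjusted p = 0.042 and 0.0025). In Tet1, with 2 pairs, 0 of 6 members passed, beside 3.18% of genes lower and 2.72% higher. There 3 members had an unadjusted p under 0.05, as had 3224 of the 13710 genes, and DESeq2 also called 0 members.

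**Figure D3:**
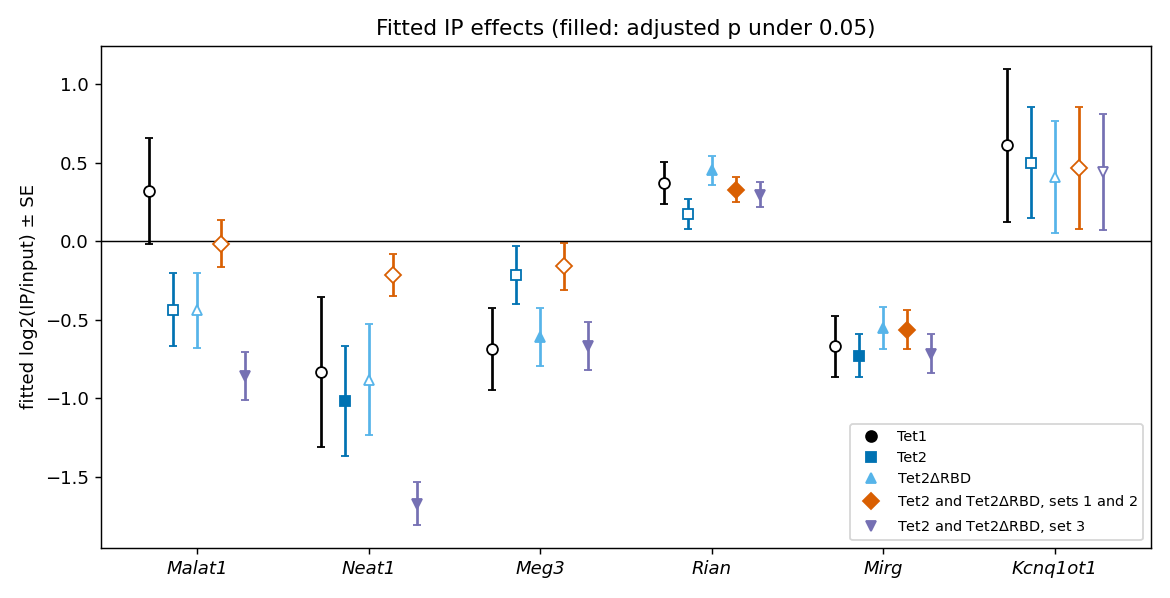
Fitted log2(IP/input) of the 6 tested RNAs from edgeR, with bars of 1 SE. The first 3 symbols are the cell lines and the last 2 split the Tet2 and Tet2ΔRBD pairs by library set. Filled symbols had an adjusted p under 0.05. Neat1 and Malat1 differ between sets (-1.67 against -0.22 and -0.86 against -0.01), and Rian and Mirg hold their place.

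Library set was then set against the IP effect in the Tet2 and Tet2ΔRBD lines, a comparison added after the values had been seen. The IP effect in set 3 was lower than in sets 1 and 2 by 1.45 ± 0.19 in log2 for Neat1 (fitted difference -1.45, adjusted p = 0.015) and by 0.84 ± 0.21 for Malat1 (fitted difference -0.84, adjusted p = 0.037), as 2 of 6 members beside 11.7% of genes called in either direction. Meg3 leaned the same way without passing (-0.51 ± 0.21, adjusted p = 0.14). The differences of Rian (-0.03 ± 0.11), Mirg (-0.15 ± 0.18) and Kcnq1ot1 (-0.02 ± 0.54) did not pass either.

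Within set 3, in the Tet2 and Tet2ΔRBD lines without the Tet1 pairs, 4 members were lower in IP (19.2% of genes) and 1 was higher (16.2% of genes). Neat1 had -1.67 ± 0.14 (adjusted p = 0.00012), Malat1 -0.86 ± 0.15 (adjusted p = 0.0028), Mirg -0.72 ± 0.12 (adjusted p = 0.0025) and Meg3 -0.67 ± 0.15 (adjusted p = 0.0093). Rian had 0.30 ± 0.08 (adjusted p = 0.019). In sets 1 and 2, Mirg was lower (-0.56 ± 0.12, adjusted p = 0.0056; 25.2% of genes) and Rian higher (0.33 ± 0.08, adjusted p = 0.0093; 21.8% of genes), while Neat1 had -0.22 ± 0.13 and Malat1 -0.01 ± 0.15. Rian and Mirg were thus the members called in the same direction in each.

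Whether deletion of the RNA-binding domain changed recovery was asked by subtracting the Tet2ΔRBD ratio from that of Tet2. None of the 6 members passed, beside 3 called genes of 13710 (0.0219%). The fitted differences were 0.39 ± 0.26 for Meg3, -0.28 ± 0.13 for Rian, -0.18 ± 0.19 for Mirg, -0.14 ± 0.49 for Neat1, 0.09 ± 0.50 for Kcnq1ot1 and 0.00 ± 0.33 for Malat1 (log2, SE, adjusted p = 1.00 for each). Of the 6, 0 had an unadjusted p under 0.05, and DESeq2 called 0. In set 3 alone Neat1 differed by 0.00 ± 0.11 and Meg3 by 0.04 ± 0.14. Over all pairs the standard errors allow differences near the size of the IP effects themselves for each of the 6 members. A p that misses the threshold does not show that the lines recovered these RNAs alike.

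Tet1 and Tet2 share library set 3 and no other. Over all pairs 0 members passed (0.0% of genes, while 517 genes had an unadjusted p under 0.05 and DESeq2 called 4 genes higher and 9 lower; of the members 0 were at an unadjusted p under 0.05 and 0 were called by DESeq2), with fitted differences of 0.76 ± 0.41 for Malat1 and 0.18 ± 0.59 for Neat1. Within set 3, with 2 pairs a line, the IP effect of Tet1 was higher than that of Tet2 for Malat1, by 1.01 ± 0.22 (adjusted p = 0.047), and for Neat1, by 0.79 ± 0.11 (adjusted p = 0.011). Of 13379 genes tested there, 152 were called higher and 162 lower. There the Malat1 ratio was 0.28 ± 0.16 in Tet1, -0.73 ± 0.15 in Tet2 and -0.97 ± 0.15 in Tet2ΔRBD, and the Neat1 ratio -0.87 ± 0.08, -1.66 ± 0.08 and -1.66 ± 0.08.

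For Malat1 the levels behind this difference lay apart in input and overlapped in IP. In set 3 the Malat1 IP values of 3.31 to 3.62 TPM in Tet1, 3.14 to 3.61 in Tet2 and 2.9 to 3.36 in Tet2ΔRBD overlapped, whereas its inputs of 2.15 to 2.89 TPM in Tet1 lay below the 4.11 to 5.64 of Tet2 and the 4.20 to 6.07 of Tet2ΔRBD. Neat1 had IP values of 40.8 to 43.5 TPM in Tet1, 32.6 to 39.8 in Tet2 and 29.3 to 30.8 in Tet2ΔRBD, and inputs of 62.0 to 74.0, 78.4 to 123 and 75.2 to 81.6 TPM, so that the lines did not overlap in IP either. Each group has 2 libraries here.

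Inputs were tested between lines with library set as a covariate (13310 genes). Between Tet1 and Tet2, 4 of 6 members passed, beside 31.5% of genes in either direction. Malat1 was lower in Tet1 input by 1.11 ± 0.23 in log2 (fitted value -1.11, adjusted p = 0.0068) and Neat1 by 0.58 ± 0.17 (fitted value -0.58, adjusted p = 0.029). Kcnq1ot1 was higher in Tet1 by 0.80 ± 0.15 (adjusted p = 0.0047) and Meg3 by 0.50 ± 0.15 (adjusted p = 0.033), while Rian and Mirg differed by -0.09 ± 0.11 and 0.05 ± 0.17. Within set 3 these 4 values were -1.06, -0.68, 0.80 and 0.37, with adjusted p between 0.0023 and 0.041. The calls rested on single inputs. Malat1 lost its call without Tet1 replicate 2 (adjusted p = 0.077), Kcnq1ot1 without Tet1 replicate 1 (0.059), Neat1 without Tet1 replicate 1 (0.079) or 2 (0.20) or Tet2 replicate 4 (-0.36, 0.075), and Meg3 without Tet1 replicate 1 (0.19) or 2 (0.096) or Tet2 replicate 1 (0.055) or 3 (0.12).

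Against Tet2ΔRBD, 1 of 6 members passed (25.5% of genes), Malat1 at -0.95 ± 0.23 (adjusted p = 0.016), a call lost without Tet1 replicate 1 (0.051) or 2 (0.15). Kcnq1ot1 had 0.42 ± 0.15 (adjusted p = 0.072). Tet2 and Tet2ΔRBD inputs gave 0 calls among the 6 members (3.14% of genes). Meg3 came nearest, with -0.44 ± 0.12 (adjusted p = 0.079), and DESeq2 called it (adjusted p = 0.033), while 3 members had an unadjusted p under 0.05. These 3 comparisons share their input libraries. Among the members Malat1 was the one whose Tet1 input was called lower than that of both other lines.

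Noncoding RNAs of other places were set beside the members as counts. For the mean of the lines, 21.7% of all genes were called higher in IP and 25.1% lower. Of 14 further nuclear noncoding RNAs in the files, 8 passed the filter, and over the mean of the lines 4 were higher in IP and 1 lower, with a median fitted log2 ratio of 0.29 beside -0.34 for the 6 members and -0.02 for all genes. Tug1, a long RNA with both nuclear and cytoplasmic pools, went from a median of 6.03 TPM in input to 18.8 TPM in IP and was above input in 10 of 10 pairs (fitted 1.53 ± 0.23, adjusted p = 0.0004). Tsix, the antisense partner of Xist, had 2.01 ± 0.53 (adjusted p = 0.0099) at an input of no more than 0.14 TPM. The Firre RNA, listed as 6720401G13Rik, lay lower in IP (-0.82 ± 0.13, adjusted p = 0.0005).

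Of 8 tested noncoding RNAs known in the cytoplasm, 6 were lower in IP and 1 higher (25.1% and 21.7% of all genes), with a median of -0.40. H19 had -0.93 ± 0.15 (adjusted p = 0.0007) and the snoRNA host Gas5 -0.50 ± 0.09 (adjusted p = 0.0009). Norad, listed as 2900097C17Rik, was higher (0.52 ± 0.08, adjusted p = 0.0004). Among 16 abundant cytoplasmic mRNAs, 5 were lower and 2 higher (median -0.10). The small nuclear and nucleolar RNAs Rmrp and Rpph1, the tested 2 of their list, were both lower over the mean of the lines. In Tet1, Tet2 and Tet2ΔRBD taken singly, 0 of the 2 were called. Their ratios in the Tet2 and Tet2ΔRBD lines depended on library set. Both were called lower in sets 1 and 2 (-5.36 and -2.19). In set 3, 0 of the 2 were called (0.15 and -0.59, in the same order of genes). The input of Rmrp ran from 0.79 to 308 TPM. The members and the cytoplasmic noncoding list both had medians below that of all genes. This was not particular to them, as the abundant cytoplasmic mRNAs and the 10 pluripotency markers (median -0.38) also lay below. The further nuclear noncoding RNAs lay above (0.29).

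**Figure D4:**
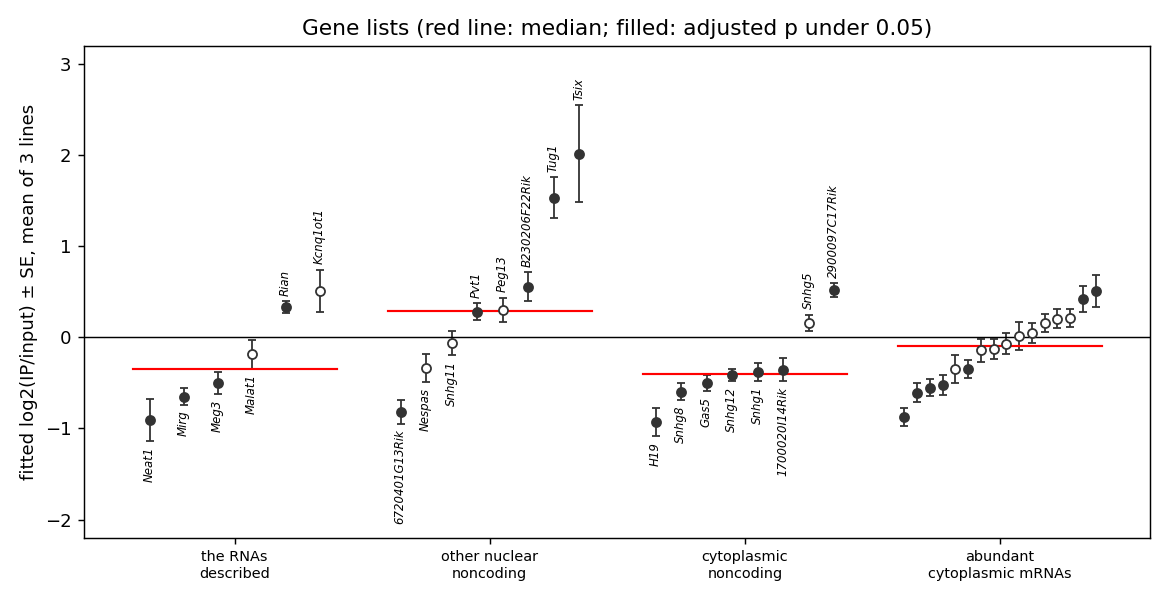
Fitted log2(IP/input), mean of the 3 lines, for the tested genes of 4 lists, with bars of 1 SE. Each point is 1 gene, filled where its adjusted p was under 0.05, and the red line is the median of the list. The further nuclear noncoding RNAs reach from -0.82 to 2.01 and the members from -0.91 to 0.51.

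The coding neighbours of the members were read in the same way, beside 25.1% of all genes called lower and 21.7% higher. They gave 2 of 6 tested higher and 0 lower in the Dlk1-Dio3 domain, with Wars (0.28 ± 0.09, adjusted p = 0.027) and Wdr25 (0.36 ± 0.11, adjusted p = 0.017) the higher ones. In the Kcnq1 domain 4 of 9 were lower and 0 higher. There Cdkn1c (-0.88 ± 0.07) and Phlda2 (-0.86 ± 0.10), imprinted genes under the control of Kcnq1ot1, lay below input in 10 of 10 pairs, whereas Kcnq1 itself had 0.40 ± 0.31 (adjusted p = 0.31). Beside Malat1 and Neat1, 1 of 9 tested genes was lower and 0 higher, and beside Miat 2 of 5 were higher and 0 lower. Of the Tet genes, Tet1 (0.58 ± 0.13, adjusted p = 0.0044) and Tet2 (0.52 ± 0.13, adjusted p = 0.0068) were higher in IP, and Tet3 had 0.14 ± 0.10.

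The small RNAs hosted by the Dlk1-Dio3 transcripts could not be measured here. The files list 13 microRNA genes and 1 snoRNA gene inside the spans of Meg3, Rian and Mirg, of which 2 had any count in the 20 libraries, at no more than 3.2 expected counts in a library. Other small RNA genes annotated in these spans are not among the genes of the files, and the fragments selected for sequencing were longer than mature small RNAs. No level was read from them.

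The genes whose ratio followed each member most closely over the 10 pairs were found among 8467 genes with a mean input of at least 5 TPM, as a description without a test. The pairs share library sets and scaling, which the likeness was not corrected for. Nearest to Malat1 were Srsf10 (Pearson's r = 0.96), D19Ertd737e (0.95) and Cdc27 (0.95). Nearest to Neat1 were Emb (0.97), Itgb1 (0.96) and Tjp1 (0.96), genes of the cell surface and its junctions. Meg3 stood with Lama1 (0.98), 9430015G10Rik (0.98) and Hmg20b (0.97), Rian with Ankrd39 (0.92), Tob1 (0.91) and Mgat2 (0.90), and Mirg with Dgke (0.97), Xpr1 (0.96) and Zbtb24 (0.94).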

How the data were processed

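Per the methods and labels, the authors removed ribosomal and transfer RNA reads with Bowtie2, trimmed with Trimmomatic and quantified genes with RSEM on the RefSeq transcriptome and mm9. They deposited expected counts, which are not normalized, and TPM to which a pseudocount of 1 had been added, named here as a signal because of that addition. The FPKM column was not used. TPM was recovered by subtracting 1. The members and gene lists were chosen with earlier results of these data known.

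Expected counts were rounded and tested with edgeR 4.0.16 in R 4.3.3 (TMM, at least 1 CPM in at least 2 libraries, quasi-likelihood test, Benjamini-Hochberg over all genes, adjusted p threshold 0.05) in a fit of all 20 libraries with each pair as a block and a separate IP effect in each line (7 residual degrees of freedom). Standard errors are the ratio over the square root of F. Inputs were fitted with library set and line (5 residual degrees of freedom). Alternatives used DESeq2 1.42.0, limma 3.58.1, other filters and pseudocounts, no block, merged replicates, set 3 alone and each sample left out. No molecular identifiers are described. Pairs come from the replicate numbers in the labels. Deviations from the group mean correlated at 0.27 in Tet1, 0.62 to 0.86 in Tet2 and 0.58 to 0.84 in Tet2ΔRBD between IP and input of the same number. Against inputs of another number they ran from -0.70 to 0.80 in Tet2 and from -0.76 to 0.73 in Tet2ΔRBD. In each of these lines 3 of 4 IP libraries correlated best with their own input. With 2 pairs in Tet1 the deviations mirror each other, which forces the other value to -0.27. Named genes were the members, the genes of the lists on which a result turned, and the 3 genes most like each member with a mean input of at least 1 TPM. Some gene lists and sequence windows are not reported here.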

Additional observations from a re-analysis of the deposited data

Results flagged for a closer look

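In Neat1 and Malat1 the IP effect differed between library sets, tested as a further effect of set 3 in the Tet2 and Tet2ΔRBD lines: the fitted log2 difference was -1.45 for Neat1 (adjusted p = 0.015) and -0.84 for Malat1 (adjusted p = 0.037). In set 3 alone, the IP effect differed between the Tet1 and Tet2 lines, by 1.01 for Malat1 (adjusted p = 0.047) and by 0.79 for Neat1 (adjusted p = 0.011), with inputs rather than IP libraries lying apart for Malat1.

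In groups of 4, 3 values stood far from the rest by Dixon's test, applied to 42 groups, which picks about 1 in 20 groups by chance. The log2(IP/input) of Mirg in Tet2 replicate 2 was 0.0276, above the other 3 pairs of that line. The TPM of Miat in the Tet2 IP of replicate 2 was 0.08, from 13 counts, and its log2(IP/input) there was 0.10, while the other 7 Tet2 libraries held 1 to 4 counts.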

How the results depend on the processing

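The count of members past the threshold is given per comparison. Without the replicate block it went to 0 in Tet2 and in Tet2ΔRBD and to 1 for the mean of the lines, Mirg. In set 3 alone it rose to 5 in Tet1, 6 in Tet2, 6 in Tet2ΔRBD and 2 for Tet1 minus Tet2. With replicates 3 and 4 merged it was 1 in Tet2 (Mirg) and 1 in Tet2ΔRBD (Rian), and with limma on log2(TPM + 1) or log2(TPM + 0.1) it was 1 in Tet2ΔRBD (Rian). For inputs, without the replicate and library set blocks it was 0 for Tet1 minus Tet2 and 0 for Tet1 minus Tet2ΔRBD, limma gave 2 for Tet1 minus Tet2, DESeq2 gave 1 for Tet2 minus Tet2ΔRBD, and a replicate block in place of the library set gave 0 there. Leaving out 1 replicate gave 1 to 2 in Tet2, 1 to 2 in Tet2ΔRBD, 4 to 5 for the mean of the lines, 1 to 4 for input Tet1 minus Tet2 and 0 to 1 for input Tet1 minus Tet2ΔRBD. In Tet1 this leaves 1 pair, which is assumed to vary like the other lines. Of the refitted values of single called members, 90 with a replicate left out and 88 under other settings, 0 changed direction, while 20 and 27 of them, respectively, were no longer past the threshold. The mean log2(IP/input) moved to 0.60 for Kcnq1ot1 and 0.0656 for Miat with TPM + 0.1, and to -0.17 for Miat when centred. Centring, added after the data were seen, gave 1 member above and 1 below input in every Tet2 pair (25.6% and 28.0% of genes), 2 below in Tet2ΔRBD (20%), 1 below in all 10 pairs (13.1%) and 1 above in set 3 (24.9%). The cause of these changes was not tested. Counts over all genes moved too. Called higher and lower were 373 and 436 genes in Tet1, 2007 and 2533 in Tet2, 1014 and 1660 in Tet2ΔRBD and 2972 and 3439 for the mean of the lines. Without the replicate block these were 0 and 0, 121 and 254, 5 and 41, and 920 and 982. With limma on log2(TPM + 1) they were 492 and 144, 4801 and 1113, 3224 and 629, and 5692 and 1512. In set 3 alone (13379 genes) they were 2623 and 3637, 3306 and 3364, 3242 and 3326, and 4267 and 4649, with 152 and 162 for Tet1 minus Tet2 and 89 and 2 for Tet2 minus Tet2ΔRBD, so that the members called there stand beside many more called genes. DESeq2 called 841 and 737 in Tet1, 1761 and 1520 in Tet2ΔRBD and 28 and 0 for Tet2 minus Tet2ΔRBD, against 3 and 0. Merging replicates 3 and 4 gave 186 and 130 in Tet1 and 424 and 636 in Tet2ΔRBD. For inputs of Tet2 minus Tet2ΔRBD, 238 and 180 genes became 498 and 360 in DESeq2, 1453 and 1262 in set 3, and 5 and 0 with a replicate block.

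Depth limits Miat, at 0 to 23 counts. Malat1, Neat1 and Kcnq1ot1 have wide errors. Tet1 was measured in 1 library set, IP and input differ in cell fraction, and Neat1 was counted through its short isoform.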
